A study of Mus musculus with 9 samples.

Results

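The genes described here are *Wnt4*, *Wnt5a* and *Wnt7a*, which encode secreted Wnt ligands, and *Dkk2* and *Dkk3*, which encode secreted proteins of the Dickkopf family. They are 5 of the 6 listed genes and 5 of the 21457 features in the matrix of cholinergic nuclei. *Wnt7b*, the other listed gene, was not analysed here. The genes were chosen by measured values, because *Dkk2* had been seen in cluster S3 and *Wnt7a* in cluster S1 among skeletal motor neurons of the same nuclei, so their levels over clusters are given as a description with no test. Only region of the cord and sex, which did not enter the choice, were tested.

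Wnt ligands are lipid-modified glycoproteins that reach neighbouring cells, where they bind Frizzled receptors. With the co-receptors Lrp5 and Lrp6 they stabilise beta-catenin, which acts with TCF and LEF factors on target genes; other Wnt signals run through Ror receptors and the planar cell polarity proteins. Dkk2 binds Lrp5 and Lrp6 and can block this beta-catenin branch, whereas Dkk3 is a divergent member of the family that is not a typical blocker of it. In the developing spinal cord Wnt proteins pattern the dorsal cord, guide axons along it, and act at forming synapses, where Wnt7a is known as a ligand that remodels presynaptic terminals.

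The study profiled nuclei of adult spinal cholinergic neurons by single-nucleus RNA sequencing. The mice were 8 weeks old and carried 1 copy of a Chat-IRES-Cre allele and 1 copy of a Cre-dependent CAG-Sun1/sfGFP allele. Nuclear envelopes thus fluoresced in cells that had expressed Cre from *Chat*. Cords of 12 mice were cut into cervical, thoracic and lumbar/sacral pieces and combined in 3 pools of 4 mice, replicate 1 of both sexes, replicate 2 of males and replicate 3 of females, which gave 9 libraries of sorted nuclei, 3 for each region. Within a region the spread over libraries is a spread over 3 pools, whereas means over 9 libraries count each pool 3 times, and the 3 libraries of a sex are regions of the same 4 mice. Sex and pool cannot be told apart.

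The deposited matrix held 16042 nuclei in 21 clusters, with 5054 nuclei in skeletal motor neuron clusters S1 to S3, 5375 in interneuron clusters I1 to I8 and 5613 in visceral motor neuron clusters V1 to V10. Values were counts that the authors had corrected for depth nucleus by nucleus, with a median total of 7381 per nucleus. Libraries held between 747 nuclei (cervical replicate 2) and 2825 nuclei (cervical replicate 1), and between 9751375 and 19432614 corrected counts. The median total per nucleus still ran from 4712 in lumbar/sacral replicate 1 to 16127 in cervical replicate 2. Levels are given as CPM, the corrected counts of a gene summed over the nuclei of a cluster in a library and scaled to a total of 1000000, with the mean and SD over libraries that held at least 10 nuclei of that cluster.

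Of the Hox genes, which keep a record of position along the body axis, *Hoxc5* went against the labels of 2 libraries. Over all cholinergic nuclei *Hoxc5* stood at 25.4 CPM in cervical replicate 1 and 22.5 in cervical replicate 3, but at 73.3 in the library labelled cervical replicate 2. It stood at 85.3 CPM in thoracic replicate 1 and 84.2 in thoracic replicate 3, but at 13.9 in the library labelled thoracic replicate 2. Each of these libraries thus had the *Hoxc5* level of the other region. The same held within skeletal motor neurons, where the library labelled cervical replicate 2 had 82.5 CPM against 16.1 and 15.6 in the other cervical libraries, and the library labelled thoracic replicate 2 had 9.44 against 101 and 94.5 in the other thoracic libraries. *Hoxa7* over all nuclei did so for 1 of them: it was at 14.7 CPM in the library labelled cervical replicate 2 against 6.33 and 5.46 in the other cervical ones, but at 11.9 in the library labelled thoracic replicate 2, between the 10.1 and 15.9 of the other thoracic ones. In skeletal motor neurons and interneurons the library labelled thoracic replicate 2 had *Hoxa7* at 15.6 and 13.8 CPM, above the other cervical libraries (at most 9.98 and 8.39) and below the other thoracic ones (at least 17.6 and 14.1). Within visceral motor neurons *Hoxa7* went against both labels, at 6.68 CPM in the library labelled cervical replicate 2 (1.76 and 0.535 in the other cervical ones) and 2.49 in the library labelled thoracic replicate 2 (5.76 and 7.95 in the other thoracic ones). *Hoxa10* over all nuclei was at 1.20 CPM in the former against 0 in both other cervical libraries, and at 0 in the latter against 0.8497 and 0.459. *Hoxc4* was mixed. In the former it was at 61.8 CPM, between the other cervical libraries (59.2 and 58.5) and the other thoracic ones (74.9 and 64.2). In the latter it was at 34.8 CPM, below every other library (57.3 to 92.0).

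The makeup of the 2 libraries was nearer to the other region by some classes and not by others. V5 held 5 of 420 visceral nuclei in the library labelled cervical replicate 2, against 198 of 1077 and 77 of 374 in the other cervical libraries, and 116 of 402 in the library labelled thoracic replicate 2, against 15 of 861 and 1 of 979 in the other thoracic ones. Skeletal motor neurons were 166 of 747 nuclei in the former, against 979 of 2825 and 584 of 1420, and 686 of 1743 in the latter, against 266 of 1538 and 228 of 1630. S2, by contrast, held 71 of the 166 skeletal nuclei of the former, against 395 of 979 and 163 of 584 in the other cervical libraries, and 79 of the 686 of the latter, against 92 of 266 and 26 of 228 in the other thoracic ones. *Hoxd10*, a gene of the caudal cord, was at 8.01, 5.01 and 4.10 CPM in the 3 lumbar/sacral libraries and at 0 in the other 6, so the lumbar/sacral libraries stood apart from the rest by that gene. Labels were kept as given, no library was moved to another region, and whether the 2 libraries were exchanged was not tested. Some levels and some fold changes between regions are given with and without both. Both are male, so that without them 1 male library is left, and the comparison of sexes was not run without both.

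**Figure D1:**
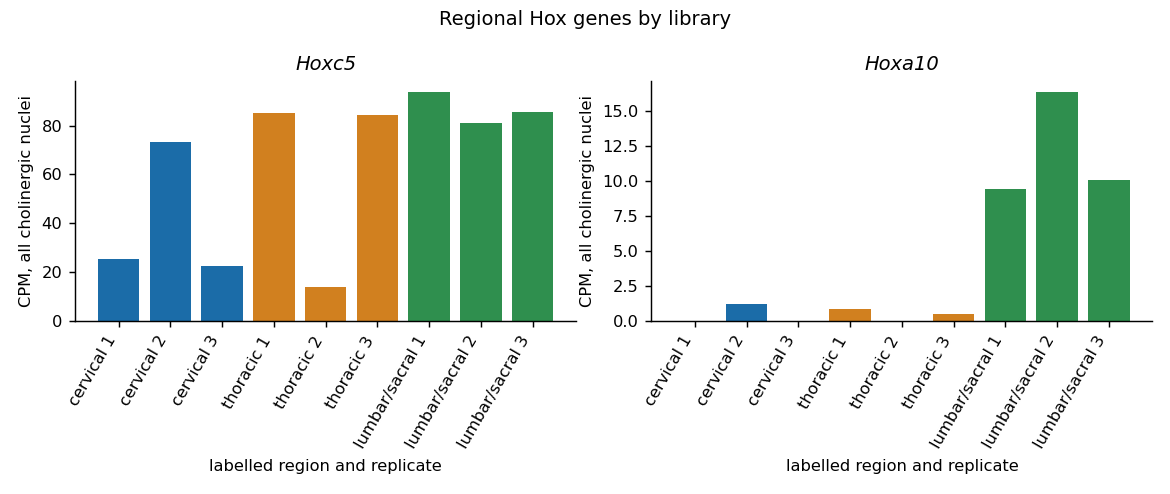
Level of *Hoxc5* and *Hoxa10* (CPM over all cholinergic nuclei) in each of the 9 libraries, coloured by labelled region. The library labelled cervical 2 stands at 73.3 CPM of *Hoxc5* and the library labelled thoracic 2 at 13.9, each apart from the other libraries of its label.

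Nuclei were also checked for barcodes that stood in more than 1 library. Among cholinergic nuclei 33 barcodes did, which touched 66 nuclei, and leaving those nuclei out is given as an alternative. Scrublet, run on each library by itself, called 164 nuclei (1.02%) as doublets; these were kept, with their removal as another alternative. Shares of nuclei and their Wilson intervals rest on corrected counts, in which a 0 need not be a 0 in the reads, and intervals and floors cover counting error only.

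The cluster labels were checked against markers. *Tns1*, which marks skeletal motor neurons, had 400 ± 45.8 CPM (SD, n = 9 libraries) in S1, 354 ± 115 in S2 and 386 ± 37.2 in S3, against 5.90 in interneurons and 31.3 in visceral motor neurons. In S3, the cluster the study assigned to gamma motor neurons that innervate muscle spindles, *Nrp2* was at 442 CPM and *Plekhg1* at 530, both above S1 (3.79 and 105) and S2 (37.6 and 23.8). *Esrrg*, another gamma marker, was at 2056 CPM in S3 but also at 1931 in S1 and 1004 in S2. In S2, assigned to alpha motor neurons that drive muscle contraction, *Stk32a* was at 352 CPM and *Sv2b* at 310, against at most 14.9 in S1 and S3. S1, which the study called Type 3, had *Gpr149* at 420 CPM and *Rreb1* at 252. They are not set against S2 and S3 here, and the paper predicted weaker *Rreb1* in alpha motor neurons too. The alpha markers *Rbfox3* and *Glis3* and the gamma marker *Gfra1* are not given. The values given come from the same nuclei as the clusters and check only that the labels were read correctly.

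On mouse build GRCm38 with GENCODE vM21, *Dkk2* lies on the plus strand of chromosome 3 from 132085292 to 132180304, and *Wnt7a* on the minus strand of chromosome 6 from 91363981 to 91411363. *Wnt4* lies on chromosome 4 from 137277489 to 137299726 and *Wnt5a* on chromosome 14 from 28504750 to 28527448, both on the plus strand. *Dkk3* lies on the minus strand of chromosome 7 from 112116017 to 112159057. All are protein-coding genes. Promoter windows of 300 bases (250 before and 50 after the start) from RefSeq, build GRCm38.p6, matched 3 of the 5 genes: *Wnt4*, *Wnt7a* and *Dkk2*. Those of *Dkk2*, at chr3:132085042-132085341 on the plus strand, and *Wnt7a*, at chr6:91411304-91411603 on the minus strand, are shown because these genes had the widest ranges over S1, S2 and S3 among the genes described. Capitals mark a match to TATAAA.
Dkk2: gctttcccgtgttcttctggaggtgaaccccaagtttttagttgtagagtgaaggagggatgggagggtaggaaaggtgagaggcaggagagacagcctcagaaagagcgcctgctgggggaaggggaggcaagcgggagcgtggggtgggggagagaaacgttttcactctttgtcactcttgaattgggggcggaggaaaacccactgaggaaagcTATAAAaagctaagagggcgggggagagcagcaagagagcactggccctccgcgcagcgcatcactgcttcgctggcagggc
Wnt7a: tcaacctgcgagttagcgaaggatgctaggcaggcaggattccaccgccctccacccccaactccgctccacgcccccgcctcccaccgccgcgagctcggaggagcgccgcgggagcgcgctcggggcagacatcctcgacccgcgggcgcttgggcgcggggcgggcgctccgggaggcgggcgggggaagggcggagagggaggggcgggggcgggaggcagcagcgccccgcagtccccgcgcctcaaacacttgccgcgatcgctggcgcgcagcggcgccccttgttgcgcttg
The TATAAA match starts 32 bases before the annotated start of *Dkk2*; this motif was chosen after the sequence had been seen. Neither *Wnt4* nor *Wnt7a* had a match on either strand, and 13.6% of the 32851 promoters of the same length did. G and C made up 57.7% of the *Dkk2* window, 76.0% of that of *Wnt7a* and 84.3% of that of *Wnt4*, with a median of 52.7% over all promoters. The TCF and LEF motif, searched as CTTTGAA or CTTTGAT and, with another base, as CTTTGTA or CTTTGTT, on both strands, had 0 matches in the 3 windows and at least 1 in 16.9% of all promoters. These are counts of letters in a window and say nothing of the factors.

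*Wnt7a* was a ligand of skeletal motor neurons in these nuclei. Of its 700 corrected counts, 650 lay in S1 to S3, with 405 in S1, 222 in S3 and 23 in S2. In S1 its level ran from 18.2 to 49.1 CPM over the 9 libraries with a median of 36.9, in S3 from 7.90 to 20.2 with a median of 10.9, and in S2 from 0 to 8.80 with a median of 2.86. The mean was 33.5 ± 10.0 CPM (SD, n = 9) in S1, 13.4 ± 4.60 in S3 and 3.13 ± 2.61 in S2. S1 was above S3 in each of the 9 libraries taken by itself, though the lowest S1 library was below the highest S3 library, and S1 and S2 did not overlap. Outside the skeletal clusters the highest mean was 3.50 ± 3.67 CPM in V7, with 0 in 4 of its 9 libraries. No count was seen in I2, I3, I4, I6, I7, I8, V8 or V9. There 0 allows a share of nuclei with a count of up to 0.385% in I2 (780 nuclei) and up to 1.88% in I7 (160 nuclei). It sets no limit on the share that expresses the gene. Without the libraries labelled cervical replicate 2 and thoracic replicate 2 the means were 33.2 CPM in S1 and 14.4 in S3.

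A count of *Wnt7a* was found in 21.01% of S1 nuclei (Wilson 95% interval 19.0 to 23.1%), 9.06% of S3 nuclei (7.94 to 10.3%) and 1.71% of S2 nuclei. Median totals were alike, at 7413 in S1, 7323 in S3 and 7494 in S2. Thinned to 4600 counts per nucleus, a depth that left out 1384 shallower nuclei, all from lumbar/sacral replicates 1 and 3, the shares were 13.3%, 5.91% and 1.04%. The interneurons, at a median total of 6986, had a count in 0.205% of nuclei. This is read as background, although 10 of their 12 counts lay in I1, which held 1520 of the 5375 nuclei. Visceral motor neurons held more counts, 38 in 5613 nuclei against 12 in 5375 interneurons, with 24 of the 38 in V7.

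*Wnt5a*, a ligand best known for signalling outside the beta-catenin branch, had its highest level in interneuron cluster I5. There it ran from 19.8 to 36.6 CPM with a median of 24.7, a mean of 26.6 ± 5.19 (SD, n = 9). I6 followed at 13.3 ± 5.70 CPM, then V5 at 11.5 ± 3.46 (n = 7) and S3 at 8.85 ± 2.69. I5 was above I6 in each of 9 libraries by more than their SD, whereas I6 and V5, and V5 and S3, did not differ beyond their spread. I5 and I6 carried 21.4% and 9.57% of the 627 counts, and S3 23.4%. Among skeletal motor neurons S3 was above S1 (2.36 ± 1.09 CPM) and above S2 (3.62 ± 2.65 CPM) within each of the 9 libraries, while its overall range of 3.40 to 12.1 CPM overlapped both. A count was seen in 20.9% of I5 nuclei (Wilson 17.8 to 24.4%, thinned 10.99%) and in 6.34% of S3 nuclei (thinned 3.86%), against 1.13% in V1, at a median total of 8663 to the 7601 of I5.

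*Wnt4*, a ligand of developing kidney and reproductive tract, was spread over the visceral motor neurons, which carried 79.7% of its 698 counts. The order of means began with V6 at 21.8 ± 16.0 CPM (SD, n = 8), V9 at 19.7 ± 15.9 (n = 6), V3 at 17.2 ± 13.3 (n = 9), V4 at 13.8 ± 4.44 and V1 at 13.2 ± 7.38. No neighbours in the order of all 21 clusters differed beyond their spread, and V9 took the first place when cervical replicate 3 (23.6 CPM) or lumbar/sacral replicate 2 (19.7 CPM) was left out or sums had to hold at least 30 nuclei (20.96 CPM). V8, almost wholly a lumbar/sacral cluster, had the lowest mean of the class at 1.36 ± 1.58 CPM (n = 3), after V10 at 4.01 ± 5.58 (n = 7). I1 had 4.54 ± 3.20 CPM, and each of the other interneuron and skeletal clusters had a mean between 0.862 and 3.16 CPM. A count was seen in 12.7% of V6 nuclei (Wilson 10.3 to 15.7%, thinned 7.43%) and in 17.8% of V9 nuclei (13.5 to 23.1%, thinned 11.3%), against 1.16% of S3 nuclei, at median totals of 8599.5, 9728 and 7323.

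*Dkk2*, the beta-catenin branch inhibitor, was by contrast nearly a gene of S3. In S3 it stood at 301, 231 and 188 CPM in the libraries labelled cervical replicates 1, 2 and 3. It stood at 191, 239 and 119 CPM in the 3 labelled thoracic and at 176, 152 and 95.4 CPM in the 3 lumbar/sacral libraries. Each S3 value lay above every S1 value (at most 4.79 CPM) and every S2 value (at most 1.91 CPM). The mean was 188 ± 63.4 CPM (SD, n = 9) in S3, 1.06 ± 1.54 in S1 and 0.978 ± 0.814 in S2, and 175 CPM in S3 without the 2 libraries that went against their labels. S3 held 3329 of the 3358 counts in skeletal motor neurons (99.1%) and 93.9% of the 3545 counts in all nuclei.

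The next cluster was I1, the largest interneuron cluster, with *Dkk2* between 4.40 and 18.0 CPM and a mean of 10.9 ± 4.87 (n = 9), above 0 in each library. I1 stood above V1 (2.69 ± 3.69 CPM) by more than their SD, and from V1 down no neighbours in the order differed beyond their spread. No count was found in I7 or V10, where 0 allows a share of nuclei with a count of up to 1.88% and 1.59%. Here too it sets no limit on the share that expresses the gene. In S3 1123 of 2241 nuclei (50.1%, Wilson 48.0 to 52.2%) had a count of *Dkk2*, 698 had at least 2, 214 at least 5 and 49 at least 10, with 20 as the highest. The share was 42.0% after thinning. S1 and S2 had 0.982% and 1.01% at like median totals, close to the 0.730% of visceral motor neurons, and are read as background, while the 5.99% of I1 (4.90 to 7.29%, thinned 3.75%, median total 6235) lay above it.

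*Dkk3* was the most broadly found of the 5 genes, with a count in 2350 nuclei (14.6%). Its order began with I5 at 67.5 ± 15.8 CPM (SD, n = 9) and I6 at 61.0 ± 15.4, which did not differ beyond their spread, then I2 at 44.2 ± 10.4 and I7 at 39.6 ± 13.1. The interneuron cluster I8 was an exception at 1.62 ± 2.50 CPM (n = 8). Visceral clusters ranged widely, from 36.4 CPM in V3 and 29.6 in V5 to 1.18 ± 2.33 in V4 and 0.767 ± 1.24 in V9. V6, V2 and V1 were also low, at 8.10, 4.69 and 4.62 CPM. In skeletal motor neurons it was S2 that had the highest mean, 37.2 ± 22.2 CPM, against 8.59 ± 8.92 in S1 and 5.78 ± 4.04 in S3. S2 was above S1 and above S3 in 8 of 9 libraries, the exception being the library labelled cervical replicate 2, with 0 in its 71 S2 nuclei; the mean of S2 was 40.4 CPM without both doubted libraries. A count was seen in 42.0% of I5 nuclei (Wilson 38.0 to 46.0%, thinned 26.5%) and 29.8% of S2 nuclei (27.4 to 32.4%, thinned 19.6%), against 0.906% in V4, at median totals of 7601, 7494 and 8492.5.

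**Figure D2:**
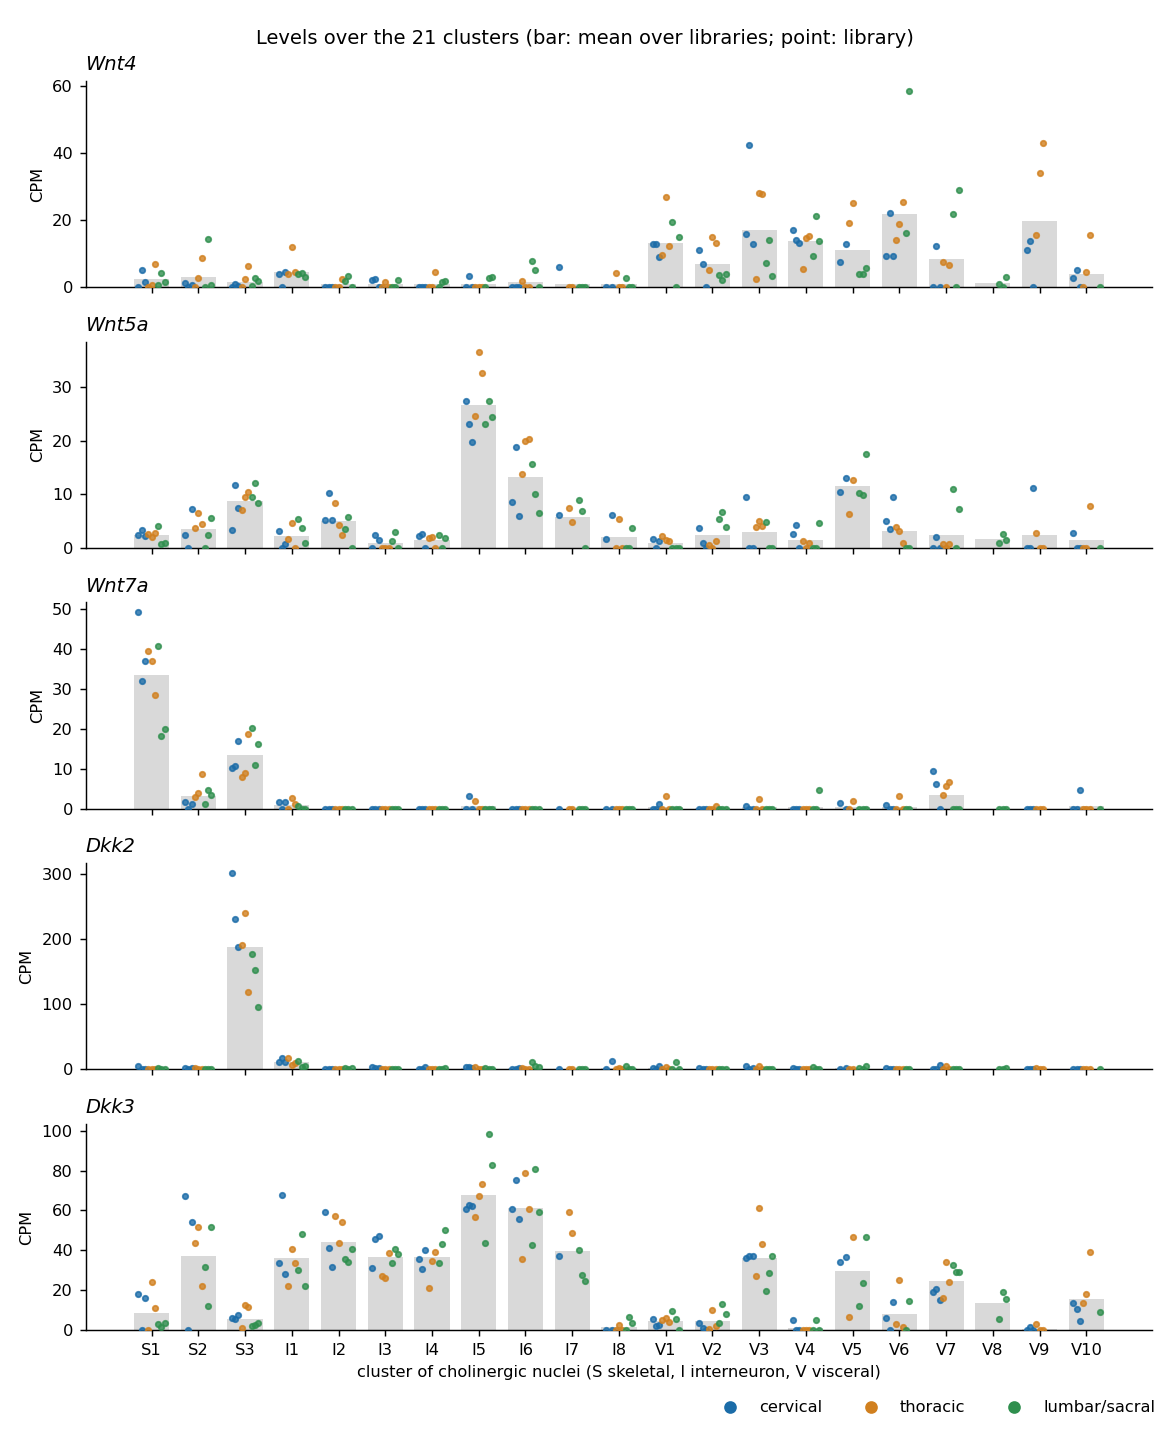
Level of each gene (CPM of corrected counts) in the 21 clusters, with bars for the mean over libraries and points for libraries of at least 10 nuclei, coloured by labelled region. *Dkk2* stands at a mean of 188 CPM in S3 and 10.9 in I1, *Wnt7a* at 33.5 in S1, *Wnt5a* at 26.6 and *Dkk3* at 67.5 in I5, and *Wnt4* spreads over visceral clusters.

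The 3 skeletal clusters thus each had a different member at its highest of the 3. Over 11465 genes that reached the minimum in S1 to S3, the median range of the mean log2(CPM + 5) over the 3 clusters was 0.30. The range was 4.95 for *Dkk2*, 2.25 for *Wnt7a*, 1.73 for *Dkk3*, 0.90 for *Wnt5a* and 0.15 for *Wnt4*. *Dkk2* lay at percentile 99.97 of the ranges and *Wnt4* at percentile 19.5, which describes genes chosen for their pattern.

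**Figure D3:**
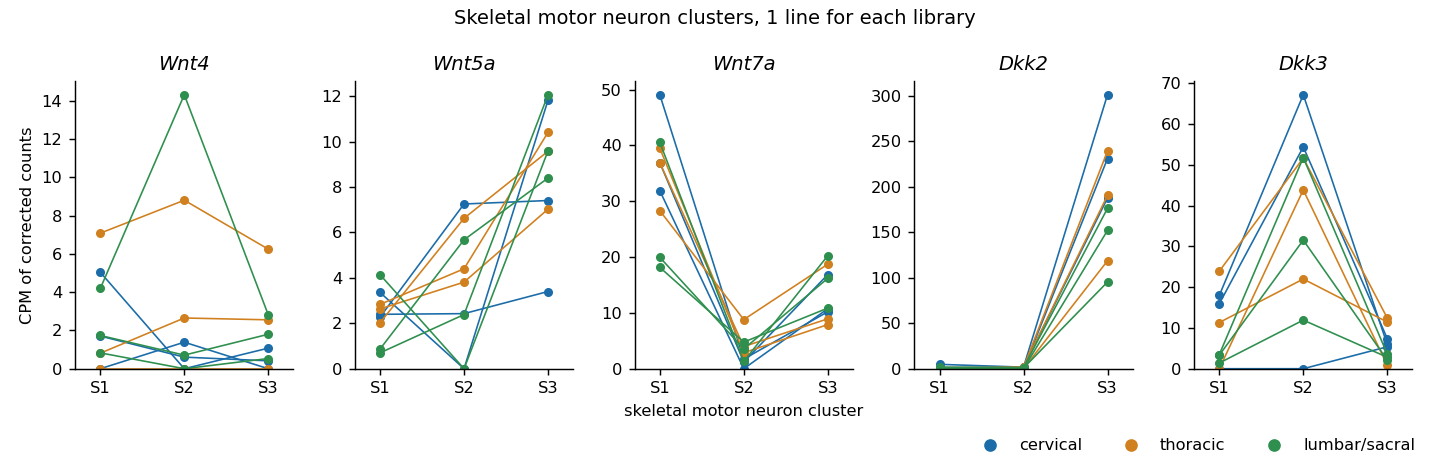
Level of each gene (CPM of corrected counts, each panel with its own axis from 0) in S1, S2 and S3, with 1 line for each of the 9 libraries, coloured by labelled region. All 9 lines rise to S3 for *Dkk2* and are lower in S3 than in S1 for *Wnt7a*, and 1 line stays at 0 in S2 for *Dkk3*.

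Counts of 2 or more members were found in 222 of 2241 S3 nuclei (9.91%) and 57 of 584 I5 nuclei (9.76%), against 0.608% of I8 nuclei. *Wnt7a* was found in 9.08% of S3 nuclei with *Dkk2* and in 9.03% of those without, higher with *Dkk2* in 5 of 9 libraries. *Wnt5a* was found in 6.50% of S3 nuclei with *Dkk2* and in 6.17% of those without, higher in 4 of 9. *Wnt4* was found in 0.712% of S3 nuclei with *Dkk2* and in 1.61% of those without, from 26 nuclei in all. The widest gap between ligands in S3 was that of *Wnt7a*, found in 14.8% of nuclei with *Wnt5a* and 8.67% of those without, higher in 7 of 9 libraries, from 21 nuclei with both and at median totals of 7916 and 7310. In I5 *Dkk3* was found in 40.2% of nuclei with *Wnt5a* and 42.4% of those without. In the whole of S3 59.7% of nuclei had a count of at least 1 of the 5 genes, as did 55.1% of I5 nuclei and 4.26% of I8 nuclei. Nuclei with a count were deeper (median total of 7411 with *Dkk2* and 7076.5 without in S3), so such shares carry depth with them.

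By the correlation of mean log2(CPM + 5) over the 21 clusters, among 14464 genes, *1700030N03Rik* (r = 0.95), *Dnajc5g* (0.94) and *Trim54* (0.93) were most like *Dkk2*, with means of 94.5, 7.44 and 15.1 CPM in S3, where each was highest. *Gm16013* (r = 0.98), *Rufy4* (0.97) and *Aldh1a2* (0.96), the last an enzyme of retinoic acid synthesis, were most like *Wnt7a* and highest in S1. *Il9r* (0.87), *Gm47782* (0.84) and *Ctxn3* (0.82) were most like *Wnt5a*, all highest in I5. *Fstl3* (0.90), *Col2a1* (0.89) and *Mfng* (0.89) were most like *Wnt4*, and *Gm43713* (0.83), *Unc79* (0.82) and *Traf3* (0.80) most like *Dkk3*. Between members r ran from -0.46 (*Wnt4* with *Dkk3*) to 0.48 (*Wnt5a* with *Dkk3*). The 21 points share their libraries and are a description.

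Of 111 listed genes of the Wnt pathway, the members among them, 102 were found and 56 reached the minimum in S1 to S3, of which 15 were highest in S1, 19 in S2 and 22 in S3. Of all 11465 genes that reached it, 3858 were highest in S1, 4135 in S2 and 3472 in S3, but the list holds members chosen by their pattern over these clusters, and the difference was not tested. Their median range over the 3 clusters was 0.45 on the log2 scale, beside 0.30 for all genes. Among secretion proteins and agonists, *Wls*, the carrier of Wnt proteins to the cell surface, was at 74.3 ± 27.5 CPM (SD, n = 9) in S3 and 22.8 ± 4.31 in S1. *Rspo2*, an R-spondin that strengthens Wnt signals, was at 51.8 ± 29.1 CPM in S2 against 1.94 in S1 and 2.999 in S3, and *Rspo3* at 108 ± 42.7 in S1 against 60.2 and 56.7 in S2 and S3. These 3 genes thus had 3 different skeletal clusters at the top.

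Among receptors *Lgr5*, an R-spondin receptor, was at 667 ± 79.2 CPM in S3, where *Dkk2* was also highest, against 215 in S1 and 194 in S2. *Ror1* was at 31.9 ± 18.7 CPM and *Ror2* at 13.6 ± 10.8 in S2, their highest among skeletal clusters. Both of these receptors, which bind Wnt5a, were far higher in I5 (404 and 157 CPM), the cluster with the highest *Wnt5a*. The other ligands with the widest range were *Wnt9a*, at 11.8 ± 4.07 CPM in S3 against 3.31 and 2.70 in S1 and S2, and *Wnt11*, at 5.38 ± 2.68 in S3 against 0 and 0.226. *Sfrp1*, a decoy for Wnt ligands, followed *Dkk2* and *Dkk3* among inhibitors at 2.77 ± 2.57 CPM, in S2.

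Of the feedback targets *Tnfrsf19* was at 41.4 CPM in S1 and 44.6 in S2 against 5.73 ± 1.62 in S3, whereas *Nkd1* was at 9.54 ± 2.17 in S3 against 1.23 and 1.67, and *Nkd2* at 3.62 ± 1.44 in S3. The targets therefore did not share an order over S1, S2 and S3. Of intracellular genes *Tle2* was at 22.6 ± 13.4 CPM in S2, *Tle3* at 27.8 ± 7.50 in S3 and *Csnk1e* at 35.0 ± 11.2 in S1, and the planar cell polarity genes *Vangl1*, *Prickle1* and *Prickle2* differed by at most 0.55 on the log2 scale over the 3 clusters.

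**Figure D4:**
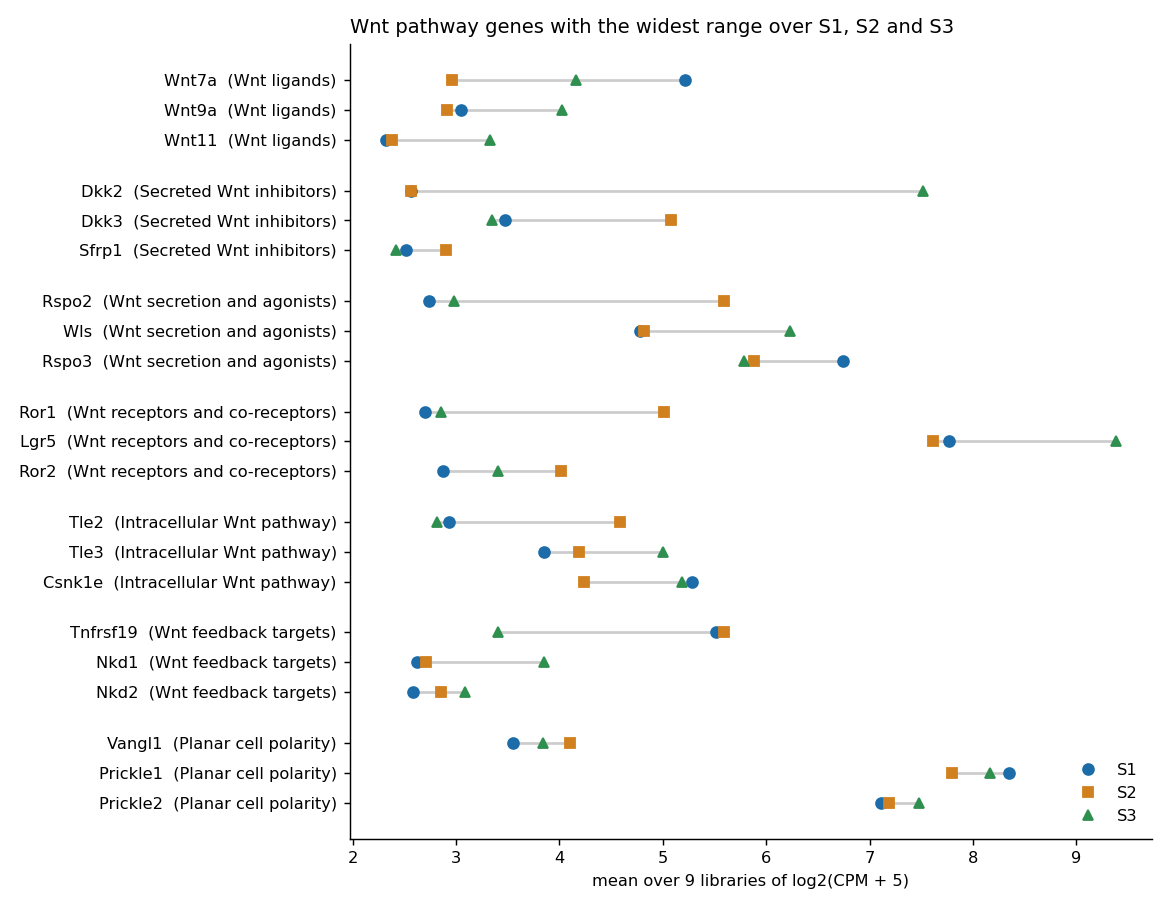
Mean over 9 libraries of log2(CPM + 5) in S1, S2 and S3 for the 3 genes of each role of the Wnt pathway list with the widest range. *Dkk2* has the widest range (4.95), with *Lgr5* and *Wls* also highest in S3, and *Rspo2* and *Ror1* highest in S2.

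Whether the genes differed between regions of the cord was tested with limma on log2(CPM + 5), with Benjamini-Hochberg adjustment over all genes of a fit. In 17 comparisons of region or sex the genes that reached the minimum gave 34 tests, of which 0 passed an adjusted p of 0.05, and 4 had an unadjusted p under 0.05. The lumbar/sacral libraries were set against the mean of the cervical and thoracic ones, here called rostral, a contrast to which an exchange of labels between cervical and thoracic libraries makes no difference in the fold change. In visceral motor neurons *Wnt4* was at 5.16, 7.17 and 6.97 CPM in the 3 lumbar/sacral libraries and between 8.26 and 21.6 CPM, with a median of 13.1, in the 6 rostral ones. All lumbar/sacral libraries lay below all rostral ones. The log2 fold change was -0.67 ± 0.24 (SE), with an adjusted p of 0.222 by limma with Benjamini-Hochberg adjustment, in a comparison where 4.27% of 10031 genes were called (428 genes, but 160 without lumbar/sacral replicate 1). Only rostral libraries reached the minimum of 10 CPM for *Wnt4*, so it was tested through the group where it was high, and with no filter on low values the adjusted p was 0.289. The clusters behind this class differed between regions: V8, low in *Wnt4*, made up 30.9% of lumbar/sacral and 0.0973% of rostral visceral nuclei, and V1, V6 and V9 together with V7 were mostly rostral, with 9.15%, 5.15%, 1.62% and 12.6% of their nuclei from lumbar/sacral libraries. Whether this makeup bears on the *Wnt4* level of the class was not tested. Without both doubted libraries *Wnt4* fell below the minimum in this class and has no fold change.

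Single visceral clusters did not all go 1 way for *Wnt4*, on few counts each. In V5 it was at 4.11, 3.98 and 5.86 CPM in the lumbar/sacral libraries, all below the 7.48 to 25.3 CPM of 4 rostral libraries. In V2 the lumbar/sacral values of 3.58, 2.23 and 4.00 CPM and the rostral range of 0 to 15.1 overlapped. So did those of V3 (7.37, 14.2 and 3.39 CPM against 2.59 to 42.5) and V4 (9.45, 21.3 and 13.7 CPM against 5.56 to 17.1). In V7 it was at 21.9, 0 and 29.1 CPM against 0 to 12.4, so that 2 lumbar/sacral libraries lay above all rostral ones, and in V1 at 19.6, 0 and 15.1 CPM against 9.15 to 26.9. These clusters were not tested by region.

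V6 was tested because it had the highest mean. That place rests on lumbar/sacral replicate 2, without which V6 was at 16.5 CPM and V9 was highest at 19.7 CPM. The value that set the choice of V6 thus also raises the lumbar/sacral side of the test. *Wnt4* was at 16.2 and 58.7 CPM in the 2 lumbar/sacral libraries with at least 10 nuclei of V6, which held 13 and 10, and between 9.29 and 25.5 CPM in the 6 rostral ones. The log2 fold change was 0.83 ± 0.50 (SE), with an adjusted p of 0.349 by limma with Benjamini-Hochberg adjustment, and 8.89% of 9895 genes were called. It was 0.98 without both doubted libraries. Without lumbar/sacral replicate 1 it became 1.62 with an adjusted p of 0.0356 by limma with Benjamini-Hochberg adjustment, and without lumbar/sacral replicate 2 it was 0.04. Each of these fits holds 1 lumbar/sacral library, with 4 counts or 1 count of *Wnt4*, and its spread is assumed to be that of the rostral libraries. Counts of calls in V6 were as unsteady, between 365 without cervical replicate 1 and 2771 without lumbar/sacral replicate 2, and 234 without both doubted libraries.

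In S3 the *Dkk2* values of the lumbar/sacral libraries, 95.4 to 176 CPM, overlapped those of the rostral libraries, 119 to 301 CPM. Within each pool of mice, however, the lumbar/sacral library lay below both rostral ones. It was at 176 against 301 and 191 CPM in replicate 1 and at 152 against 231 and 239 in replicate 2. In replicate 3 it was at 95.4 against 188 and 119 CPM. *Dkk2* was not called with the pool as a block either. The log2 fold change was -0.56 ± 0.26 (SE), with an adjusted p of 0.816 by limma with Benjamini-Hochberg adjustment, beside 0.0711% of 9841 genes called (7 genes, and 0 without any 1 of the lumbar/sacral libraries). It was -0.73 without lumbar/sacral replicate 1, -0.31 without lumbar/sacral replicate 3 and -0.45 without both doubted libraries. *Wnt7a* and *Wnt5a* in S3 had log2 fold changes of 0.28 ± 0.26 and 0.21 ± 0.25. In S1, where 0.00% of 10025 genes were called (0 genes by limma, 439 at an unadjusted p under 0.05, and 9 called without cervical replicate 2), *Wnt7a* was at 40.6, 18.2 and 19.96 CPM in the lumbar/sacral libraries and 28.3 to 49.1 in the rostral ones. Replicate 1 of the lumbar/sacral libraries lay among the rostral values and the other 2 below them, with a log2 fold change of -0.48 ± 0.24 and an adjusted p of 0.989 by limma with Benjamini-Hochberg adjustment (-0.53 without both doubted libraries, -0.79 without lumbar/sacral replicate 1 and -0.30 without lumbar/sacral replicate 2). In S2 0.00% of 10387 genes were called (0 by limma, 245 at an unadjusted p under 0.05), and *Dkk3* had a log2 fold change of -0.06 ± 0.74 (-0.57 without both doubted libraries).

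In all skeletal motor neurons 0.0100% of 9999 genes (1 gene, and 0 without any 1 of the lumbar/sacral libraries) were called between lumbar/sacral and rostral libraries, and *Dkk2*, *Dkk3* and *Wnt7a* had log2 fold changes of -0.33 ± 0.28, -0.56 ± 0.54 and -0.05 ± 0.20 (SE), or -0.22, -0.86 and -0.11 without both doubted libraries. That of *Dkk3* was -0.98 without lumbar/sacral replicate 3 and -0.19 without lumbar/sacral replicate 2. With 1 library left out, that of *Dkk2* ran from -0.52 to 0.0364 and that of *Wnt7a* from -0.27 to 0.0599, so both signs could turn. In interneurons 0.0510% of 9805 genes were called (5 genes, 1 without lumbar/sacral replicate 1 and 9 without thoracic replicate 2) and *Dkk3* had -0.13 ± 0.16. In I5 0.0286% of 10483 genes were called (3 genes, and 0 without any 1 of the lumbar/sacral libraries or without both doubted ones), with 0.15 ± 0.23 for *Dkk3* and -0.09 ± 0.23 for *Wnt5a*, whose 3 lumbar/sacral values of 23.2, 27.4 and 24.5 CPM lay inside the rostral range of 19.8 to 36.6 CPM.

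*Dkk3* in S1 had the region fold change with the largest distance from 0 after that of *Wnt4* in V6. It was at 3.31, 1.40 and 3.47 CPM in the lumbar/sacral libraries, and in the rostral ones at 0 in cervical replicate 2 and thoracic replicate 1 and between 11.3 and 23.9 CPM in the other 4, so the groups overlapped. Its log2 fold change was -0.80 ± 0.62 (SE), with an adjusted p of 0.989 by limma with Benjamini-Hochberg adjustment, and -0.88 without both doubted libraries. It was -0.52 without thoracic replicate 2. Only 4 rostral libraries reached the minimum of 10 CPM, so here too the gene was tested through the group where it was high, and with no filter the adjusted p was 0.9805.

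With the pool of mice as a replicate block, which takes up the pairing of the 3 regions within a pool, the counts of genes called between lumbar/sacral and rostral libraries moved. They were 4 in place of 1 in skeletal motor neurons, 737 in place of 428 in visceral motor neurons and 44 in place of 5 in interneurons. In the clusters they were 23 in place of 0 in S1, 1 in place of 0 in S2, 12 in place of 7 in S3, 12 in place of 3 in I5 and 433 in place of 880 in V6. None of *Wnt4*, *Wnt5a*, *Wnt7a*, *Dkk2* and *Dkk3* was among the genes called with the block.

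Cervical against thoracic libraries is the comparison that rests on the doubted labels. By label, 0.00% of 9999 genes were called in skeletal, 0.00% of 10031 in visceral motor neurons and 0.00% of 9805 in interneurons (0 genes each by limma, with 607, 160 and 189 at an unadjusted p under 0.05). In skeletal motor neurons *Dkk3* was at 34.4, 1.96 and 23.3 CPM in the libraries labelled cervical and at 15.9, 21.6 and 12.7 CPM in those labelled thoracic. The library labelled cervical replicate 2 was the lowest of the 6 and the groups overlapped. The log2 fold change was -0.11 ± 0.62 (SE) with all libraries, 0.80 ± 0.48 without both libraries that went against their labels, 0.64 without cervical replicate 2 alone and 0.04 without thoracic replicate 2 alone. For *Dkk2* in the same nuclei it was 0.12 ± 0.33 with all libraries and 0.41 ± 0.38 without those 2, and for *Wnt7a* -0.20 ± 0.24 and -0.01 ± 0.29. In visceral motor neurons *Wnt4* had -0.28 ± 0.28 (-0.57 without thoracic replicate 1, -0.07 without thoracic replicate 2) and fell below the minimum without those 2, and *Dkk3* had 0.06 ± 0.40 with all libraries and 0.74 ± 0.31 without them. In interneurons *Dkk3* had 0.07 ± 0.18 and 0.02 ± 0.22. None of these passed the test.

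The male pool was compared with the female pool, 3 libraries against 3 with region as a term. Each sex is 1 pool of 4 mice, so the standard errors and adjusted p rest on the spread between regions of the same mice and not on a spread between animals of a sex. *Dkk2* in S3 was at 231, 239 and 152 CPM in the male libraries labelled cervical, thoracic and lumbar/sacral and at 188, 119 and 95.4 CPM in the female ones. The male library was higher in 3 of 3 regions, although the lowest male value lay below the highest female value. The log2 fold change was 0.64 ± 0.16 (SE), with an adjusted p of 0.409 by limma with Benjamini-Hochberg adjustment, where 0.0313% of 9573 genes were called. With region left out of the fit, because the region labels of 2 male libraries are in doubt, the adjusted p was 0.450. The same gene over all skeletal motor neurons had 0.71 ± 0.22, higher in 3 of 3 regions, with an adjusted p of 0.358 and 0.0725% of 9660 genes called. With the 2 doubted male libraries turned, the male library would still be higher in each pair for both values. The makeup of the skeletal class differed between the pools, though not 1 way by label. In lumbar/sacral libraries S3 held 346 of 602 male and 289 of 732 female nuclei, and S2 58 and 242 of them. In cervical libraries S3 held 58 of 166 male and 245 of 584 female nuclei, and S2 71 and 163. In thoracic libraries S3 held 342 of 686 male and 117 of 228 female nuclei, and S2 79 and 26. Whether the makeup bears on the values of *Dkk2* and *Dkk3* over the class was not tested.

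This result turned on the cervical libraries. When cervical replicate 2 was left out, the fit called 1314 genes in skeletal motor neurons in place of 7, and 1329 when cervical replicate 3 was left out, and *Dkk2* was then among them at a log2 fold change of 1.02 by limma with Benjamini-Hochberg adjustment. In S3 such fits called 1036 and 1187 genes in place of 3, with *Dkk2* at 0.81. Leaving out 1 library of a region leaves its partner with nothing to compare it with, so these fits rest on 2 pairs, whose spread is taken mainly from the other genes. Without a thoracic or a lumbar/sacral library of either sex *Dkk2* was not called, with log2 fold changes of 0.47 and 0.64 in S3.

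*Wnt7a* in S3 lay the other way, at 10.7, 8.94 and 10.9 CPM in the male libraries and 16.9, 18.7 and 16.2 CPM in the female ones. The 3 male values all lay below the 3 female values. The pool of both sexes, left out of this fit, was at 10.2, 7.90 and 20.2 CPM, a range that spans the male and the female values. The log2 fold change was -0.55 ± 0.20 (SE) and the adjusted p 0.433 by limma with Benjamini-Hochberg adjustment. In S1 *Wnt7a* had 0.01 ± 0.19, with 0.0411% of 9740 genes called (4 genes, and 962 without cervical replicate 3). *Dkk3* in S2 was at 0, 51.7 and 11.9 CPM in the male and 54.4, 22.0 and 51.8 CPM in the female libraries, which overlapped. By label the thoracic pair was opposite to the others. With the doubted male libraries turned, the female library would be higher in each pair. The log2 fold change of *Dkk3* was -1.42 ± 0.72, with 0.0308% of 9730 genes called (3 genes, and 237 without thoracic replicate 2). It was called, at -2.66 with an adjusted p of 0.0304 by limma with Benjamini-Hochberg adjustment, without thoracic replicate 2, at 0.0261 without thoracic replicate 3 or with at least 30 nuclei in each sum, and was -0.34 without either cervical library.

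In visceral motor neurons 0.0513% of 9744 genes were called between sexes (5 genes, and 425 without cervical replicate 3), and *Wnt4* had a log2 fold change of 0.28 ± 0.18 (SE), *Dkk3* 0.11 ± 0.38. In interneurons 0.0521% of 9594 genes were called (5 genes, and 1331 without cervical replicate 3), and *Dkk3* had 0.21 ± 0.13. Over all skeletal motor neurons *Dkk3* was at 1.96, 21.6 and 3.23 CPM in the male and 23.3, 12.7 and 19.6 CPM in the female libraries, with the thoracic pair opposite to the other 2 by label. With the 2 doubted male libraries turned, the female library would be higher in each pair. Its log2 fold change was -1.005 ± 0.52, with an adjusted p of 0.4661 by limma with Benjamini-Hochberg adjustment, -1.80 without either thoracic library and -0.50 without either cervical library. Sex and pool of mice are the same thing in these libraries and cannot be told apart.

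**Figure D5:**
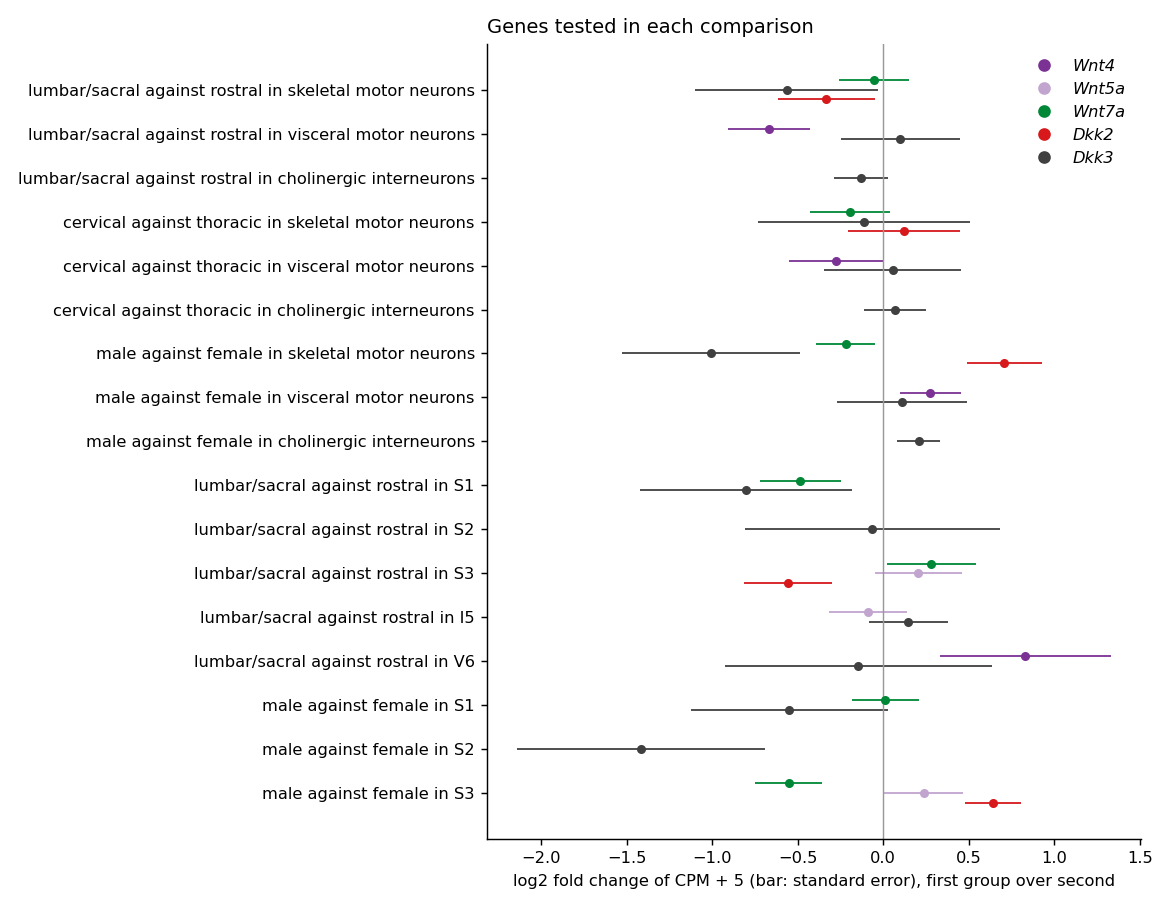
Log2 fold change of CPM + 5 with its standard error for each gene that reached the minimum in each of 17 comparisons, the first named group over the second. None of the 34 values passed an adjusted p of 0.05; the largest distances from 0 are *Dkk3* between sexes in S2 (-1.42) and in skeletal motor neurons (-1.005).

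Of the Wnt pathway list, between 42 and 50 genes were tested in each comparison. In V6 1 was higher and 4 were lower in lumbar/sacral libraries, of 46 tested, with a median log2 fold change of -0.19 beside -0.20 over all genes. Of all 9895 genes tested there 195 were higher and 685 lower, so calls over all genes also lay mostly on the lower side, and the list was not tested against them. The higher one was *Tle4*, a co-repressor (1.84 ± 0.45, SE, adjusted p of 0.0381 by limma with Benjamini-Hochberg adjustment). The lower ones were *Porcn*, which adds the lipid to Wnt proteins (-1.61 ± 0.41), *Ctnnbip1*, an inhibitor of beta-catenin (-1.55 ± 0.29), *Daam1*, of the polarity branch (-1.46 ± 0.24), and *Csnk1d*, a kinase (-1.38 ± 0.27). These rest on the 10 and 13 nuclei of V6 in 2 lumbar/sacral libraries. In each of the other 16 comparisons limma called 0 genes of the list, with between 0 and 10 at an unadjusted p under 0.05, the most in visceral motor neurons between lumbar/sacral and rostral libraries (10 of 50, beside 1336 of 10031 over all genes). Medians of the list lay within 0.10 of those over all genes, at 0.14 beside 0.14 in S3 between lumbar/sacral and rostral libraries and at -0.07 beside 0.02 in S3 between sexes.

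Markers of other cells were read in the same sums. In S3 the 5 oligodendrocyte genes summed to 42.6 ± 8.51 CPM (SD, n = 9), mostly *Mbp* (24.1), against 111 in S1 and 105 in S2, and the 4 astrocyte genes to 2.09 ± 1.60, with none of these at 0. The 2 oligodendrocyte precursor genes summed to 0.268 CPM in S3, the 3 meningeal fibroblast genes to 0.426, the 2 ependymal genes to 5.12 and the 3 endothelial and mural genes found to 5.04, mostly *Pecam1* (3.69). Among neuronal markers the 4 inhibitory genes summed to 37.4 CPM in S3, mostly *Gad2* (21.7), and *Slc17a6*, the excitatory gene found, was at 5.24. The 3 microglia genes, mostly *P2ry12* (37.8), summed in S3 to 9.77, 73.1 and 8.23 CPM in the libraries labelled cervical replicates 1 to 3, 6.15, 39.9 and 117 in the thoracic and 13.3, 57.1 and 116 in the lumbar/sacral ones. The sum was thus highest in the female thoracic and lumbar/sacral libraries, which had the lowest *Dkk2* in S3, but low in the female cervical one, and its part in the values by sex was not tested.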

How the data were processed

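Nuclei were sorted from the cords of Chat-IRES-Cre::CAG-Sun1/sfGFP mice by GFP and DRAQ5 and sequenced with droplet 3' chemistry. The authors aligned the reads to mm10 with Cell Ranger 3.1.0 and clustered the nuclei in Seurat. The deposited values, here of the unit score, are counts that the authors corrected for depth in each nucleus with SCTransform, so they are not raw reads. For each library these counts were added up within a cluster or class of clusters, leaving out sums of fewer than 10 nuclei, and a gene was tested where 3 or more sums reached 10 CPM. Tests used limma 3.58.1 with a trend on log2(CPM + 5) in R 4.3.3 (with the data.table package, 1.17.8), with Benjamini-Hochberg adjustment, called at an adjusted p under 0.05. The limma fit was tested on simulated data with changed genes added. Of 200 changed genes it recovered between 194 and 200. The simulated noise was drawn for each library by itself, with no deviation shared within a pool. The added changes were larger than most fold changes of the members. They lay only in genes with higher means than several tested members had. This recovery therefore does not show how readily a change of a member would be called. False calls were 8.41% of 214 between cervical and thoracic skeletal motor neurons, and between 3% and 4.31% in the other simulated comparisons. Levels, shares, Wilson intervals and floors (3 counts over the nuclei) were computed in Python 3.11.15 with numpy 2.4.6, pandas 2.3.3 and scipy 1.17.1, doublets with Scrublet in scanpy 1.11.5, and figures with matplotlib 3.10.9.

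The replicate number marks the same pool of mice in each region, per the labels. Deviations from the region means of libraries of 1 pool correlated at 0.67 to 0.92 in replicate 1, 0.34 to 0.75 in replicate 2 and -0.22 to 0.85 in replicate 3; the fit without the block is the one reported. The members and lists were chosen with earlier results of these data known. Named genes were the members and, of the Wnt pathway list, the 3 with the widest range over S1 to S3 in each role and at most 6 called in a comparison. The cells outside the cholinergic clusters, 34231 annotated nuclei less the 16042 described, were left out, as were cluster levels from tests, since the members were chosen on them.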

Additional observations from a re-analysis of the deposited data

Results flagged for a closer look

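A sample far from the others was found in 4 of 27 groups of libraries looked at. The rule flags about 1 in 20 groups of independent, normally distributed values. The groups here share libraries, hold unequal numbers of nuclei and in part few counts, so that rate need not hold for them. *Wnt4* in V6 was at 58.7 CPM in lumbar/sacral replicate 2, against a median of 16.2 in the other libraries, and rests on 4 counts in 10 nuclei. *Wnt4* in S3 was at 6.24 CPM in thoracic replicate 3, against 0.804, from 6 counts. *Dkk2* in V1 was at 11.3 CPM in lumbar/sacral replicate 2, against 1.03, from 2 counts in 26 nuclei. *Dkk2* in S1 was at 4.79 CPM in cervical replicate 1, against 0.349, from 8 counts in 241 nuclei. Each of the 4 rests on 8 counts or fewer.

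Between the male and the female pool *Dkk2* differed 1 way in S3 (mean log2 difference of 0.64, male higher in every region) and the opposite way in interneurons (-0.13, female higher in every region by label), a distance of 0.77. The difference was not tested. With the 2 doubted male libraries turned, the thoracic pair in interneurons would be 3.95 CPM male against 2.67 female, so the pattern in interneurons rests on their labels. In interneurons *Dkk2* lay between 1.67 and 5.78 CPM, below the minimum for a test, and in I1, with 109 of its 141 counts there, the male library was higher in cervical (17.4 against 11.04 CPM) and lower in thoracic (7.43 against 10.1) and lumbar/sacral libraries (4.40 against 5.002). Sex and pool cannot be told apart.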

How the results depend on the processing

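Of 543 alternatives run for the 34 member tests, 503 kept their direction and side of the threshold, 32 reversed and 8 passed the threshold. None of the 34 was called in the main fit, so no call could be lost. The cause of these moves was not tested. All 112 alternatives run for the levels stayed within 1 SD over libraries. Leaving out 1 library cannot move a mean by that much, so those alternatives could not fail. *Wnt4* in V6, for 1, went from 21.8 to 16.5 CPM without lumbar/sacral replicate 2. The replicate block changed no call of a member.

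The counts of genes called in the lumbar/sacral comparison moved as follows. In skeletal motor neurons (1) it was 12 with no filter on low values, 0 with pseudocount 1, 4 with the replicate block and 0 to 1 with 1 library left out. In visceral motor neurons (428) it was 737 with the block and 160 to 471. In interneurons (5) it was 3 with scaling by the median of ratios, 2 with pseudocount 1, 44 with the block, 13 without both doubted libraries and 1 to 9. In S1 (0) it was 9 with no filter, 8 with pseudocount 20, 23 with the block, 7 without shared barcodes, 2 without both doubted libraries and 0 to 9, and in S2 (0) 1 with the block. In S3 (7) it was 3 with ratio scaling, 17 with no filter, 2 with pseudocount 1, 12 with the block, 4 without shared barcodes, 3 without both doubted libraries and 0 to 4. In I5 (3) it was 12 with the block, 0 without both doubted libraries and 0 to 4. In V6 (880) it was 488 with no filter, 433 with the block, 234 without both doubted libraries and 365 to 2771. The members called in their top clusters were 0, and 0 to 1 with 1 library left out. Clusters kept as highest were 5 of 5, 4 to 5 with 1 library left out and 4 with at least 30 nuclei. Between cervical and thoracic skeletal motor neurons (0) it was 1 without both doubted libraries.

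Between sexes the count was 7 in skeletal motor neurons (0 to 1329 with 1 library left out), 5 in visceral motor neurons (0 to 425) and 5 in interneurons (8 with ratio scaling, 8 with the region term left out, 0 to 1331). It was 4 in S1 (7 with ratio scaling, 7 with no filter, 7 with pseudocount 20, 0 to 962). It was 3 in S2 (6, 74 and 5 with the same settings, 235 with at least 30 nuclei, 1 to 237) and 3 in S3 (6 with ratio scaling, 7 with the region term left out, 0 to 1187). In a fit without 1 library of a sex the lone sample left in a region has no partner, and limma takes its spread from the other samples and genes.

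Ratio scaling moved the median log2 fold change of all genes by 0.16 for sex in S2 and by 0.14 between cervical and thoracic skeletal motor neurons. For lumbar/sacral libraries it moved it by -0.14 in S3, -0.13 in skeletal motor neurons and -0.11 in S2. Higher and lower calls went from 2 and 3 to 2 and 1 in lumbar/sacral interneurons and from 5 and 2 to 2 and 1 in S3. By sex they went from 4 and 1 to 4 and 3 in visceral motor neurons, 4 and 1 to 4 and 4 in interneurons, 2 and 2 to 5 and 2 in S1, and 2 and 1 to 3 and 3 in S2.

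Signs that reversed were those of *Dkk3* between cervical and thoracic skeletal motor neurons (0.80 without both doubted libraries, 0.0281 with pseudocount 20), *Dkk3* in S2 between regions (0.21 with pseudocount 1) and *Wnt7a* in S1 between sexes (-0.0740 with ratio scaling). With 1 library left out, *Dkk3* between cervical and thoracic libraries ran from -0.0744 to 0.15 in interneurons, -0.61 to 0.64 in skeletal and -0.24 to 0.48 in visceral motor neurons, and *Dkk2* in skeletal motor neurons from -0.0804 to 0.38. Between lumbar/sacral and rostral libraries *Dkk3* ran from -0.0756 to 0.47 in I5, -0.68 to 0.41 in S2, -0.40 to 0.84 in V6 and -0.0466 to 0.36 in visceral motor neurons. In skeletal motor neurons *Dkk2* ran from -0.52 to 0.0364 and *Wnt7a* from -0.27 to 0.0599. Between sexes *Dkk3* ran from -0.62 to 0.21 in S1 and -0.39 to 0.56 in visceral motor neurons, and *Wnt7a* in S1 from -0.15 to 0.11. With the sign kept, 1 library left out moved other values by over 1.5 times. Between cervical and thoracic libraries *Wnt7a* ran from -0.32 to -0.0486 in skeletal and *Wnt4* from -0.57 to -0.0684 in visceral motor neurons. Between lumbar/sacral and rostral libraries *Dkk3* ran from -1.16 to -0.52 in S1, -0.98 to -0.19 in skeletal motor neurons and -0.26 to -0.00957 in interneurons, *Wnt7a* from -0.79 to -0.30 in S1 and 0.13 to 0.46 in S3, *Dkk2* in S3 from -0.73 to -0.31, *Wnt4* in V6 from 0.0373 to 1.62, and *Wnt5a* from 0.0750 to 0.28 in S3 and -0.16 to -0.0360 in I5. Between sexes *Dkk3* ran from -2.66 to -0.34 in S2, -1.80 to -0.50 in skeletal motor neurons and 0.12 to 0.32 in interneurons, *Wnt7a* in skeletal motor neurons from -0.31 to -0.0682, *Wnt5a* in S3 from 0.13 to 0.39 and *Wnt4* in visceral motor neurons from 0.14 to 0.40.

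The region alternatives, the shared barcodes, the region term and sex within S1 to S3 were chosen after seeing the data. Depth limits the low counts: a share of 0 in 160 nuclei allows up to 1.88% of nuclei with a count. Corrected counts do not show what deeper reads would hold.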
